A study of Mus musculus with 42 samples.

Results

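This is a comparison of stromal cells of the mouse colon after loss of Smad4 and after loss of the BMP receptor Alk3 (gene symbol Bmpr1a). The members are the tdTomato-positive libraries coded GS4T (4) and GA3T (4), taken by genotype and cell label, 8 of the 42 libraries of the series. The tdTomato-positive control libraries, coded GWTT (4), serve as a reference. The study recombined floxed genes in Gli1-expressing cells of mice and sorted reporter-positive cells for RNA sequencing of bulk RNA. It also holds sorted goblet cells and cytokine-treated organoids, which are not used here.

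All 3 groups carried the inducible recombinase Gli1-CreERT2, which acts only in cells that express Gli1, and a Rosa26-tdTomato reporter that recombination turns on. GWTT mice carried these alone, GS4T mice also had floxed Smad4, and GA3T mice also had floxed Alk3. Every group, controls included, received tamoxifen, 100 µl of a 20 mg/ml solution daily on 5 days in a row, and cells were sorted at day 30. The labels give the injection as subcutaneous and the methods as intraperitoneal. Mice of both sexes, 2 to 4 months old, were used. Each genotype has 2 libraries from the proximal colon and 2 from the distal colon. Values below are always given in the order proximal 1, proximal 2, distal 1, distal 2, in counts per 1000000 reads (CPM). Whether 1 mouse or a pool of mice stands behind a library is not stated, so p-values here measure only the spread between these samples. Nor is it stated whether like-numbered proximal and distal libraries come from the same mouse. The tests over both segments treat the 4 libraries of a genotype as independent, and their p-values are too small if they come from 2 mice.

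The 8 knockout libraries held between 14222902 and 23686940 reads, with a median of 17992894. No library had more than 10.4% of its reads in its 10 most abundant genes. Where no read was counted, up to 3 reads remain possible, or 0.127 to 0.211 CPM in these libraries, for counting error alone.

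BMP ligands bind a receptor complex that includes Alk3, which phosphorylates Smad1, Smad5 and Smad9, while TGF-beta and activin act through other receptors and Smad2 and Smad3. Both branches need Smad4 to carry the signal into the nucleus, so Smad4 loss touches both branches and Alk3 loss touches the BMP branch. In the colon, stromal cells both make and receive BMP signals, with antagonists near the crypt base and ligands towards the lumen. The direct comparison asks what Smad4 loss changes beyond loss of the BMP receptor.

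Smad4 (GRCm38 chr18:73639009-73703780), the shared mediator, measured 43.3, 48.9, 41.5 and 70.1 in GS4T, 87.8, 106, 86.7 and 87.6 in GA3T and 94.9, 101, 109 and 105 in GWTT. All 4 GS4T libraries lay below every GA3T and GWTT library, and none was near 0. The log2 difference, GS4T minus GA3T, was -0.87 (SE 0.17, adjusted p = 0.0356) and -0.94 (adjusted p = 0.164) without the male GA3T libraries described below. It is not called, since a call needs a log2 difference of at least 1 in size. Bmpr1a (chr14:34410734-34503341), the gene of Alk3, measured 167, 176, 155 and 151 in GS4T, 125, 105, 124 and 106 in GA3T and 166, 185, 179 and 189 in GWTT. All 4 GA3T libraries lay below all others here too, with a GS4T minus GA3T difference of 0.50 (SE 0.09, adjusted p = 0.0301) and 0.62 (adjusted p = 0.0839) without the male libraries, also not called. Both targeted genes thus have reads left in their own knockout.

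Gli1, the gene whose promoter drives the recombinase, measured 91.0, 1.40, 53.4 and 65.6 in GS4T, 72.2, 1.98, 44.5 and 55.1 in GA3T and 38.0, 96.3, 99.6 and 83.3 in GWTT. Proximal library 2 was low in both knockouts and the other libraries were not, and the groups overlapped, with a difference of 0.13 (SE 1.22, adjusted p = 0.964).

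The labels give the tissue as intestinal epithelium and the cells as Gli1-CreERT2 tdTomato-positive. The fibroblast markers (10 genes, most abundant Col3a1) summed to 47309, 58495, 55916 and 57265 in GS4T, 61685, 57262, 50816 and 59991 in GA3T and 52299, 47406, 54123 and 44472 in GWTT. All 10 had reads in every library. Epithelial markers (10 genes, most abundant Krt8, none at 0 in a knockout library) summed to 1682, 2439, 935 and 2126 in GS4T, 705, 1158, 1309 and 588 in GA3T and 17.7, 731, 88.6 and 263 in GWTT. All 10 had a higher mean in GS4T than in GA3T, although the sums of the groups overlap, and 1 of 10 was called, against 1.81% of all genes tested: Krt18, a keratin, at 1.46 (SE 0.32, adjusted p = 0.0457) and 1.31 (adjusted p = 0.157) without the male GA3T libraries. The 10 had a median log2 difference of 0.86, or 0.98 without the male libraries. In bulk samples, fewer cells of a type and less RNA per cell cannot be told apart.

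Macrophage markers (12 genes, most abundant Lyz2, none at 0) summed to 2007, 1125, 2581 and 1645 in GS4T, 986, 1741, 1301 and 1094 in GA3T and 266, 406, 887 and 808 in GWTT. Of the 12, 11 had a log2 difference above 0, and 1 was called higher, against 0.832% of all genes. This was the lipopolysaccharide co-receptor Cd14, at 1.25 (SE 0.28, adjusted p = 0.048), and 0.78 (adjusted p = 0.185) without the male libraries. Neutrophil markers (8 of 11 listed in every table, most abundant Mmp9) summed to 134, 114, 518 and 338 in GS4T, 61.0, 125, 88.9 and 149.6 in GA3T and 8.56, 17.2, 19.3 and 21.2 in GWTT. The sums of the knockouts overlap for both lists. Of the 8 neutrophil markers, 7 had a log2 difference above 0 (7172 of all 14297 genes tested did) and 3 were called higher (S100a8, S100a9 and Mmp8), against 0.832% of all genes, with the distal GS4T libraries highest. The macrophage median was 0.41, or 0.38 without the male libraries, and the neutrophil median 1.86, or 1.43 without the male libraries. Cxcr2, Camp and Ngp are not listed in every table and do not enter the sum.

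B and plasma cell markers (7 of 8 listed in every table, most abundant Igkc) summed to 1850.2, 2874, 1100.3 and 2826 in GS4T, 2635, 2725, 5479 and 6387 in GA3T and 4246, 7227, 9859.8 and 12588 in GWTT. Their median log2 difference was -1.50, and -1.57 without the male libraries, against 0.00 over all 14297 genes tested. Of the 7, 1 was called, against 1.81% of all genes. This was Sdc1, a proteoglycan that plasma cells and epithelium share, which was higher in GS4T, at 1.22 (SE 0.22, adjusted p = 0.0288) and 0.83 (adjusted p = 0.0989) without the male libraries. T cell markers had no called member of 7 tested, and all 7 had a log2 difference below 0, with a median of -0.62, or -1.02 without the male libraries, and with Cd3d and Cd8a at 0 in a library, and none of 7 mast cell markers was listed in all the tables.

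Endothelial markers (8 genes, most abundant Tek) summed to 106, 179.7, 71.6 and 314 in GS4T, 142, 107, 145 and 77.1 in GA3T and 183, 193, 150.3 and 141 in GWTT, overlapping, with none called and a median log2 difference of 0.83, or 0.82 without the male libraries. Pericyte markers (5 of 6 listed, most abundant Rgs5) summed to 276, 366, 737 and 609 in GS4T, 211, 317, 203 and 274 in GA3T and 189, 209, 211 and 222 in GWTT, with none called and a median log2 difference of 1.01, or 0.35 without the male libraries. The 5 visceral smooth muscle markers summed to 501, 421, 613 and 382 in GS4T, 374, 421, 602 and 439 in GA3T and 372, 289.6, 690.5 and 675 in GWTT. Of the 5, Actg2 and Des were called higher, against 0.832% of all genes. Among mesothelial markers, 1 of 3 tested was called higher, against 0.832% of all genes. This was Msln, at 1.78 (SE 0.33, adjusted p = 0.0326), and 1.57 (adjusted p = 0.187) without the male libraries. Glial and enteric neuron lists had 2 tested members each, and lymphatic endothelium, interstitial cells of Cajal and erythrocytes 3, 3 and 2, with none called. The part that these other cell types play in the results below was not tested.

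**Figure D1:**
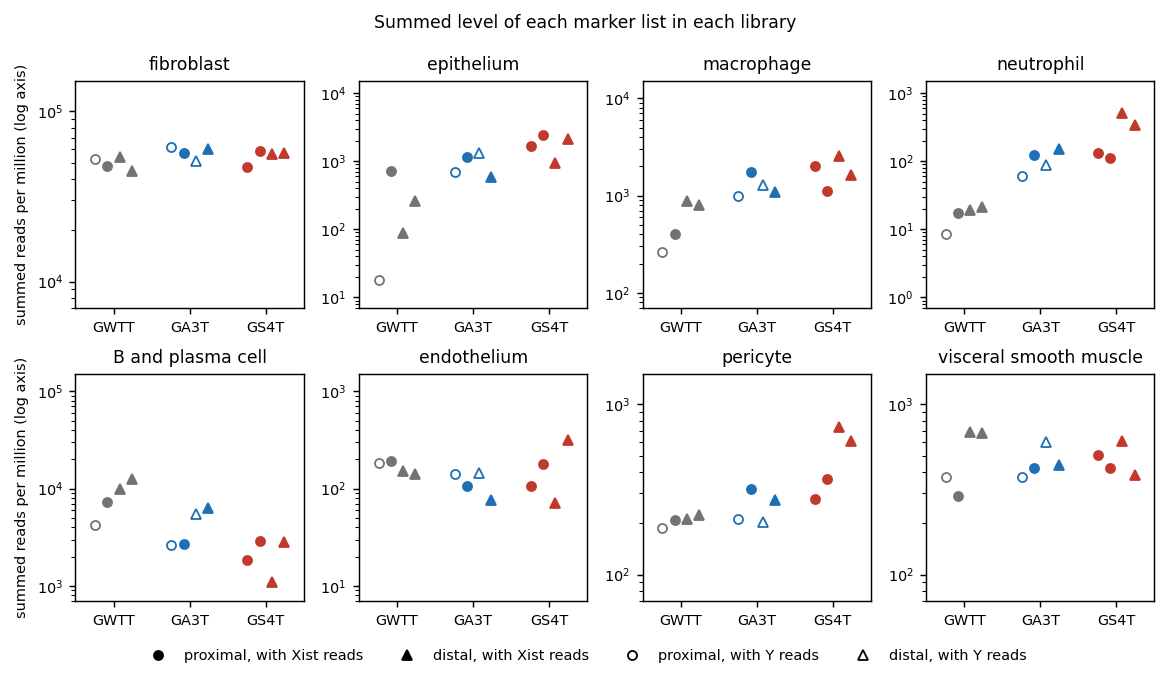
Summed CPM of 8 marker lists in each library of GWTT, GA3T and GS4T on log axes, circles for proximal and triangles for distal, open for libraries with chromosome Y reads. Neutrophil sums reach 518 and 338 in the distal GS4T libraries, while fibroblast sums stay between 44472 and 61685 everywhere.

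Sex differs between the groups. Xist, the RNA that coats the inactive X chromosome, measured 1166, 998, 1052 and 1038 in GS4T and 0.168, 1101, 0.296 and 1185 in GA3T. The chromosome Y gene Ddx3y measured 104 and 116 in replicate 1 of the proximal and distal GA3T libraries and 0 in the replicates 2. The distal GS4T table lists none of the chromosome Y genes Ddx3y, Eif2s3y, Kdm5d and Uty. All 4 GS4T libraries therefore read as female by Xist, and GA3T has 2 male and 2 female libraries. Of the controls, proximal 1 read as male, with Ddx3y at 155, and the other 3 as female. Where the GS4T minus GA3T difference of a called gene over both segments is printed, it is given with and without the 2 male GA3T libraries. List medians of this difference are followed by the median against the female GA3T libraries alone, marked female. Gene differences and list medians against controls are printed only with all libraries in.

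Over all genes, libraries of the same genotype correlated at r = 0.958 to 0.981 and libraries of different knockouts at 0.927 to 0.977, across genes that are not independent replicates. The first principal component, with 41% of the variance, placed the GS4T libraries at 15, 14.4, 38.2 and 40.1 and the GA3T libraries at -40.8, -11.5, -36.3 and -19. The 2 knockouts separate along it, and the male GA3T libraries lie farther from GS4T than the female ones.

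Of 14297 genes tested over both segments, 259 were called (1.81%), 119 higher in GS4T (0.832%) and 140 lower (0.979%). The largest increase was that of Tpm3-rs7 and the largest decrease that of Ifi202b. A call needs an adjusted p (limma, Benjamini-Hochberg) under 0.05 and a log2 difference of at least 1. All libraries of the groups were apart for 2143 genes (15.0%), and 238 of the 259 called genes were among them (1.66% of all genes tested). Without the 2 male libraries 25 genes were called, 11 higher and 14 lower, of which 21 were among the 259. Of the 256 called genes that could be tested there, 206 had a log2 difference of at least 1 in size, so most calls were lost by the adjusted p. With sex as a covariate 47 were called, 40 of them among the 259, and 207 of the 259 had a difference of that size. The 259 were chosen with the male libraries in, and these fits share libraries. At an unadjusted p under 0.05 and the same fold change, 589 genes passed (4.12%). With 1 library left out the count ran from 68, without GA3T proximal 1, to 475, without GA3T proximal 2. Values as deposited, without scaling to CPM, gave 409 called genes, 122 higher and 287 lower.

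Leaving out the 2 female GA3T libraries instead gave 563 called genes. Sex and the other differences between these libraries cannot be told apart.

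Both GA3T libraries numbered 1 are male and both numbered 2 female, as they would be if like-numbered segments shared a mouse, while control proximal 1 is male and control distal 1 female. After the data were seen, the like-numbered libraries of a knockout were therefore also taken as 1 mouse. With their estimated correlation (0.16) 139 genes were called, 57 higher and 82 lower, all among the 259. With the mean of the 2 segments, 2 values against 2, 10 genes were called, also among the 259, including Tpm3-rs7, Ctla2a, Ifi202b, Catspere2, Col6a5 and Mgp. Of the called genes named here or seen later, those not called with the estimated correlation were S100a8, S100a9, Mmp8, Krt18, Krt7, Cd14, Msln, Dbp, Nr1d1, Bmp3, Lox, Col13a1, Col15a1, Col4a5, Lum, Dpt, Itgbl1, Des, Il1a, Il1rn, Ccl6, Angpt2, Fgf1, Ifit3, Gbp3, Ifi205, Ciita, Clca3b, Reg3b, Tnf and Aldh1a1. Their adjusted p-values with an estimated correlation ran from 0.0518 for Col13a1 to 0.0869 for Ciita. The called immunoglobulin segments other than Igkv4-70 were also not called with it.

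**Figure D2:**
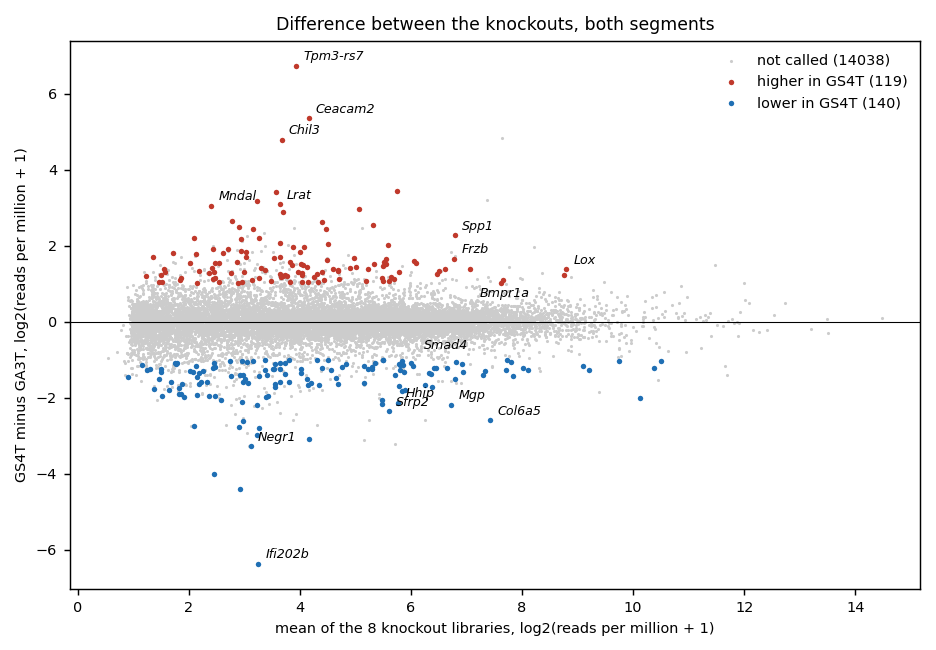
Difference between the knockouts (GS4T minus GA3T, log2 of CPM + 1) against the mean level of the 8 libraries, 1 point per gene for 14297 genes. Red points are the 119 genes called higher in GS4T and blue points the 140 called lower, with Smad4 and Bmpr1a named though neither is called.

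Most of the 12 largest increases and the 12 largest decreases are described gene by gene. They were taken only from called genes whose GS4T and GA3T libraries did not overlap. For these genes the separation of the knockouts is therefore fixed by the choice and is not a result. Their position relative to the controls was not part of the choice. Chil3, a chitinase-like protein of activated macrophages with a close copy in Chil4, measured 61.2, 101, 31.1 and 100 in GS4T, 1.29, 4.15, 0.211 and 1.43 in GA3T and 0.183, 0.124, 1.37 and 0.298 in GWTT. Every GS4T library was several times higher than any GA3T library. The difference was 4.79 (SE 0.43, adjusted p = 0.00385) and 4.25 (adjusted p = 0.0445) without the male libraries.

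S100a8, a subunit of the calcium-binding protein calprotectin that neutrophils carry, measured 10.1, 16.1, 52.1 and 61.6 in GS4T, 0.784, 7.49, 0.802 and 2.43 in GA3T and 0.183, 0.618, 1.13 and 0.119 in GWTT. S100a9, its partner, measured 12.0, 26.0, 60.9 and 71.0 in GS4T, 2.91, 10.5, 2.11 and 2.76 in GA3T and 0.122, 0.988, 1.13 and 0.298 in GWTT. As the choice of genes required, all GS4T libraries lay above all GA3T libraries for both genes. The distal GS4T libraries were the highest. The differences were 3.18 (SE 0.65, adjusted p = 0.0413) for S100a8 and 2.89 (SE 0.60, adjusted p = 0.0418) for S100a9, and 2.39 (adjusted p = 0.198) and 2.43 (adjusted p = 0.209) without the male libraries. These 2 genes also belong to the neutrophil markers described above, whose part was not tested.

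Retnlb, a resistin-like protein that goblet cells secrete, measured 25.7, 96.1, 15.4 and 52.5 in GS4T, 2.41, 7.45, 2.74 and 0.662 in GA3T and 0.0612, 1.48, 2.15 and 2.50 in GWTT. The GS4T libraries were all higher than the GA3T libraries, with a difference of 3.41 (SE 0.55, adjusted p = 0.0224) and 3.37 (adjusted p = 0.138) without the male libraries, while the epithelial markers also had higher means. Serpina3m, a serine protease inhibitor from a cluster of closely similar genes, measured 117, 161, 134 and 375 in GS4T, 9.19, 16.1, 8.32 and 43.6 in GA3T and 10.6, 1.17, 5.72 and 5.60 in GWTT. Distal library 2 was the highest in both knockouts, and the groups did not overlap, at 3.43 (SE 0.50, adjusted p = 0.0162) and 2.68 (adjusted p = 0.0854) without the male libraries. Because of its near-identical relatives, which gene of the cluster the reads came from is uncertain.

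Lrat, the enzyme that esterifies retinol for storage, measured 30.8, 22.2, 52.6 and 43.0 in GS4T, 0.784, 3.06, 5.57 and 6.01 in GA3T and 0.245, 0.927, 0.298 and 0.358 in GWTT. It was under 1 CPM in the controls, low in GA3T and higher in each GS4T library than in any other. The difference was 3.09 (SE 0.26, adjusted p = 0.00304) and 2.77 (adjusted p = 0.0063) without the male libraries, and it stayed called with any 1 library left out. Ctla2a, a cysteine protease inhibitor with a close copy in Ctla2b, measured 40.0, 29.9, 62.8 and 90.8 in GS4T, 9.41, 7.40, 6.25 and 7.28 in GA3T and 8.32, 4.32, 7.87 and 2.21 in GWTT. The 4 GS4T libraries were all above the other 8, with a difference of 2.62 (SE 0.29, adjusted p = 0.00814) and 2.65 (adjusted p = 0.0445) without the male libraries.

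Several of the largest differences fell on genes with near-identical copies, where the assignment of reads is uncertain. Tpm3-rs7, a close copy of the tropomyosin gene Tpm3, measured 154, 158, 166 and 149.8 in GS4T, 0.336, 0.613, 0.338 and 0.662 in GA3T and 32.0, 0.494, 0.358 and 1.37 in GWTT. GS4T was high in all libraries and GA3T near 0, and among the controls proximal 1 alone was high. Its difference of 6.74 (SE 0.12, adjusted p = 9.54e-08) was the largest of all, and 6.59 (adjusted p = 6.05e-06) without the male libraries. Tpm3 itself measured 168, 145, 179 and 113 in GS4T and 291, 307, 292 and 312 in GA3T and was called lower, at -1.01 (SE 0.14, adjusted p = 0.0146) and -1.05 (adjusted p = 0.11) without the male libraries. Summed, the 2 genes measured 322, 303, 345 and 263 in GS4T, 291, 308, 292 and 312 in GA3T and 269.5, 229, 253 and 255 in GWTT, and the knockouts overlapped.

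Ceacam2, an adhesion molecule much like Ceacam1, measured 114, 173, 69.3 and 119.9 in GS4T, 0.280, 24.3, 0.549 and 0.221 in GA3T and 1.284, 0.803, 0.477 and 1.25 in GWTT. It was high in the 4 GS4T libraries, and of the other 8 only GA3T proximal 2 rose above 2 CPM. The difference was 5.35 (SE 0.81, adjusted p = 0.0193) and 4.36 (adjusted p = 0.11) without the male libraries, and 4 of the fits that each left out 1 library did not call it. Ceacam1 overlapped between the groups, at 191, 112, 104 and 297 in GS4T and 118, 167, 158 and 85.3 in GA3T, with 0.33 (SE 0.36, adjusted p = 0.622). Gbp2b, an interferon-inducible GTPase with close relatives beside it, measured 20.3, 21.6, 12.5 and 12.3 in GS4T, 2.69, 1.60, 3.29 and 0.386 in GA3T and 1.35, 1.17, 1.73 and 1.49 in GWTT. All GS4T libraries were higher, at 2.64 (SE 0.33, adjusted p = 0.0115) and 3.17 (adjusted p = 0.00172) without the male libraries.

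Mndal and Ifi202b belong to the Ifi200 family of interferon-inducible genes, which are similar in sequence and sit side by side on chromosome 1. Mndal measured 21.0, 16.7, 12.9 and 8.93 in GS4T, 1.68, 0.330, 1.22 and 0.441 in GA3T and 45.7, 1.54, 0.835 and 0.477 in GWTT, higher in GS4T at 3.05 (SE 0.29, adjusted p = 0.00403), and 3.46 (adjusted p = 0.0156) without the male libraries. Ifi202b measured 0, 0.0583, 0.0540 and 0.0703 in GS4T, 96.1, 96.9, 54.5 and 104 in GA3T and 36.3, 93.3, 51.4 and 57.2 in GWTT. No GS4T library reached the level of 3 reads, and every other library was far above it. The fitted difference of -6.37 (SE 0.21, adjusted p = 5.64e-06), or -6.60 (adjusted p = 8.17e-05) without the male libraries, depends on the 1 CPM added to each value and is not a bound on the fold change.

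Mgp, a matrix protein that limits calcification and binds BMPs, measured 49.3, 48.2, 49.0 and 47.9 in GS4T, 239.8, 190.2, 253 and 223 in GA3T and 475, 469, 461 and 418 in GWTT. The 3 genotypes formed 3 separate levels with little spread, GS4T the lowest. The direct difference was -2.19 (SE 0.10, adjusted p = 3.69e-05) and -2.06 (adjusted p = 0.00137) without the male libraries. Against the same controls, GS4T differed by -3.20 (adjusted p = 2.04e-07) and GA3T by -1.01 (adjusted p = 0.00322).

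Col6a5, a chain of collagen VI, measured 72.9, 86.0, 58.7 and 61.0 in GS4T, 394, 262, 534 and 577 in GA3T and 112, 86.7, 122 and 123 in GWTT. GA3T was above every control library and GS4T below every control library. The direct difference was -2.60 (SE 0.24, adjusted p = 0.00403) and -2.48 (adjusted p = 0.0645) without the male libraries, and the values against controls were -0.67 (adjusted p = 0.0106) for GS4T and 1.93 (adjusted p = 0.00249) for GA3T. Colgalt2, which adds galactose to collagen chains, measured 5.32, 4.37, 1.84 and 1.05 in GS4T, 32.7, 12.8, 14.6 and 8.60 in GA3T and 39.1, 50.5, 15.3 and 16.0 in GWTT, lower in each GS4T library than in any other library. Its difference was -2.12 (SE 0.31, adjusted p = 0.0159) and -1.62 (adjusted p = 0.0916) without the male libraries.

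Hhip, which binds and traps Hedgehog ligands and is itself a Hedgehog target, measured 24.9, 19.7, 28.2 and 28.5 in GS4T, 153, 58.0, 157 and 117 in GA3T and 162, 176, 205 and 235 in GWTT. No GS4T library reached the lowest of the other 8, which was GA3T proximal 2. The difference was -2.13 (SE 0.27, adjusted p = 0.0117) and -1.68 (adjusted p = 0.0434) without the male libraries. Sfrp2, a secreted modulator of Wnt signalling, measured 11.7, 15.0, 30.7 and 32.1 in GS4T, 57.8, 101, 95.6 and 253 in GA3T and 14.7, 18.6, 80.5 and 114 in GWTT. GS4T and GA3T did not overlap, and both GS4T and controls were higher in the distal segment. Its difference was -2.36 (SE 0.29, adjusted p = 0.0117), and -2.91 (adjusted p = 0.00123) without the male libraries, larger than with them.

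Ryr3, a calcium release channel, measured 7.36, 4.66, 2.32 and 1.27 in GS4T, 27.9, 28.7, 16.3 and 9.81 in GA3T and 6.36, 5.37, 4.89 and 4.89 in GWTT. GA3T stood above the controls in all libraries and GS4T overlapped them, with a direct difference of -2.20 (SE 0.22, adjusted p = 0.00503) and -2.05 (adjusted p = 0.0583) without the male libraries. Negr1, an adhesion protein best known from neurons, measured 5.78, 0.991, 2.16 and 0.422 in GS4T, 24.0, 11.6, 48.2 and 33.7 in GA3T and 39.2, 64.5, 68.3 and 86.7 in GWTT. All GS4T libraries were lower than all others, at -3.28 (SE 0.55, adjusted p = 0.025) and -2.91 (adjusted p = 0.164) without the male libraries. Dner, a transmembrane protein related to Notch ligands, measured 1.59, 0.874, 2.81 and 3.09 in GS4T, 14.0, 4.43, 19.5 and 12.6 in GA3T and 26.0, 16.9, 20.0 and 21.8 in GWTT. GS4T was again below all others, at -2.06 (SE 0.31, adjusted p = 0.0193) and -1.54 (adjusted p = 0.0854) without the male libraries.

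Dbp, a transcription factor whose level follows the circadian clock, measured 22.4, 39.8, 11.1 and 15.5 in GS4T, 158, 70.0, 158 and 43.6 in GA3T and 234, 369, 115 and 239 in GWTT. The knockouts did not overlap, but GA3T replicate 1 was higher than replicate 2 in both segments, and the difference was -2.18 (SE 0.44, adjusted p = 0.04), or -1.43 (adjusted p = 0.111) without the male libraries. Hr, a transcriptional corepressor, measured 27.7, 31.3, 18.2 and 11.4 in GS4T, 114, 63.4, 116 and 78.4 in GA3T and 97.4, 105, 126 and 118 in GWTT, with GS4T below all others at -2.07 (SE 0.30, adjusted p = 0.0155) and -1.72 (adjusted p = 0.111) without the male libraries. Catspere2, a subunit of the sperm calcium channel with a close copy, measured 0.566, 0.583, 0.702 and 0.773 in GS4T, 8.29, 11.0, 10.2 and 11.0 in GA3T and 3.91, 9.70, 8.52 and 9.83 in GWTT. It was under 1 CPM in each GS4T library and above it in all others, at -2.74 (SE 0.15, adjusted p = 0.000186) and -2.86 (adjusted p = 0.00815) without the male libraries.

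Of these 24 genes, 11 were also called without the male libraries, 14 with sex as a covariate and 13 in each of the fits that left out 1 library. Among the 24, the call was lost most often for S100a8, in 7 of these fits, and for S100a9, Negr1 and Dbp, in 6 each. The comparisons of GS4T and of GA3T with controls share the 4 GWTT libraries. GS4T against GWTT called 2083 of 14460 genes (14.4%), 1245 higher (8.61%) and 838 lower (5.80%). GA3T against GWTT called 728 of 14388 (5.06%), 558 higher (3.88%) and 170 lower (1.18%). With the male GA3T libraries and the male control left out, GA3T against GWTT called 1066, 593 higher and 473 lower, and with sex as a covariate 977, 673 higher and 304 lower. GS4T against GWTT called 2091 without the male control and 2082 with the covariate. With all libraries in, 20 of the 24 were called in GS4T against GWTT and 6 in GA3T against GWTT. The 24 were chosen by a difference that uses the same knockout libraries, so these counts depend in part on that choice.

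**Figure D3:**
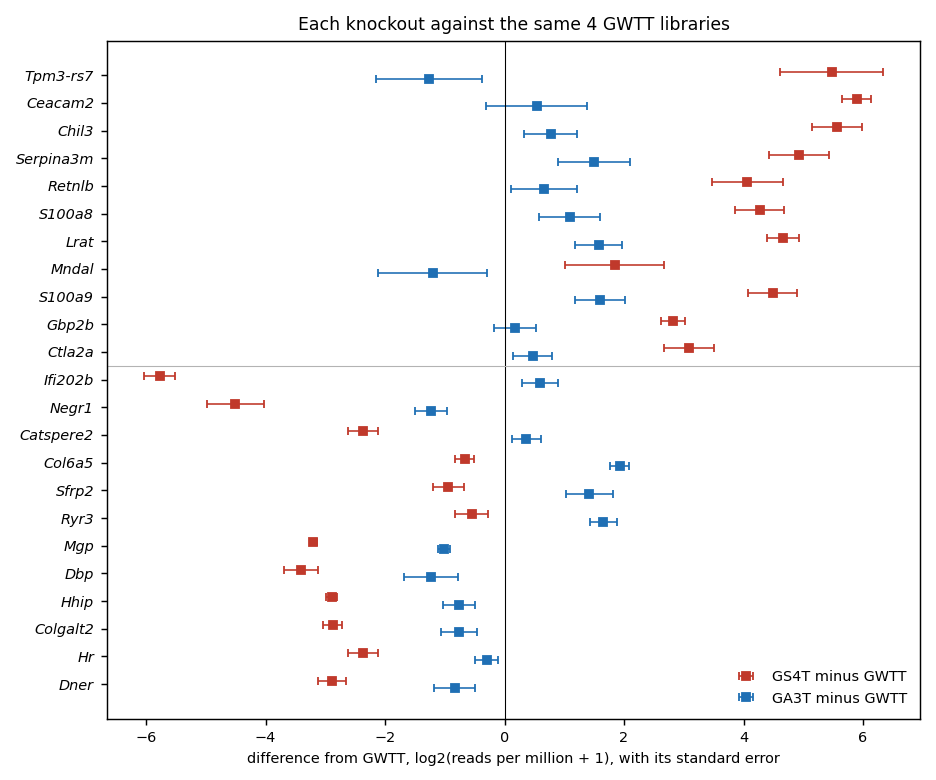
Difference of each knockout from the same 4 GWTT libraries (log2 of CPM + 1, bars 1 standard error) for most of the largest increases, above the line, and the 12 largest decreases between the knockouts. Mgp lies at -3.20 in GS4T and -1.01 in GA3T, and Col6a5 at -0.67 and 1.93.

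The BMP branch held no called gene among its receptors, Smads and targets. None of the 11 receptors and Smads of this branch was called in the direct comparison, with a median log2 difference of 0.09 (female 0.17) against 0.00 over all genes (female 0.02). None of the 11 tested BMP targets was called either (median -0.03, female 0.24). Against controls, the target medians were -0.96 in GS4T, with 5 called lower (5.80% of all genes), and -0.80 in GA3T, with 3 called lower (1.18% of all genes). Both of these comparisons use the same controls.

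Id2, an inhibitor of differentiation that BMP signalling induces, measured 37.5, 32.0, 49.8 and 34.2 in GS4T, 40.9, 31.7, 49.9 and 32.3 in GA3T and 118, 89.6, 82.2 and 92.8 in GWTT. Id3, from the same family, measured 148, 161, 142 and 149 in GS4T, 140.3, 103, 217 and 128 in GA3T and 319, 278, 283 and 348 in GWTT. Both knockouts lay below the controls in all libraries for each gene, and overlapped each other. Against controls Id2 differed by -1.30 (adjusted p = 0.000669) in GS4T and -1.30 (adjusted p = 0.00668) in GA3T, and Id3 by -1.02 (adjusted p = 0.000168) and -1.11 (adjusted p = 0.0141). The direct differences were -0.01 (adjusted p = 0.985) and 0.08 (adjusted p = 0.824). Id4 measured 2.55, 4.37, 1.999 and 2.88 in GS4T, 6.50, 4.71, 9.08 and 2.59 in GA3T and 19.0, 24.3, 18.7 and 17.3 in GWTT, with the knockouts again overlapping, and differed directly by -0.70 (adjusted p = 0.226). Id1 measured 13.4, 17.3, 12.5 and 17.9 in GS4T, 17.5, 20.2, 46.6 and 11.2 in GA3T and 18.5, 25.0, 36.6 and 49.2 in GWTT, with GA3T overlapping both other groups, and differed directly by -0.44 (adjusted p = 0.504). Bambi, a decoy receptor, measured 7.87, 10.6, 5.998 and 10.1 in GS4T, 11.2, 9.94, 16.0 and 9.70 in GA3T and 31.0, 22.9, 19.6 and 23.1 in GWTT, with overlap between the knockouts and a direct difference of -0.40 (adjusted p = 0.301).

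Smad6 and Smad7, the inhibitory Smads, overlapped between the knockouts with direct differences of 0.13 (adjusted p = 0.612) and -0.03 (adjusted p = 0.849). Smad9, a receptor-activated Smad that is also a BMP target, measured 7.48, 8.45, 5.89 and 7.66 in GS4T, 9.41, 7.02, 17.7 and 4.36 in GA3T and 15.1, 15.5, 34.5 and 37.4 in GWTT, and GA3T distal 1 was the highest knockout library. Atoh8, a BMP-responsive transcription factor, measured 22.9, 13.9, 17.8 and 39.0 in GS4T, 6.78, 6.93, 15.1 and 4.74 in GA3T and 8.87, 11.3, 19.7 and 19.9 in GWTT. Its difference of 1.39 (adjusted p = 0.0672) was not called, and the groups overlapped. Msx1 and Hey1 had direct differences of 0.40 (adjusted p = 0.168) and -0.10 (adjusted p = 0.79).

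The other receptors had direct differences of 0.09 (adjusted p = 0.627) for Acvr1, -0.49 (adjusted p = 0.0755) for Acvrl1, 0.16 (adjusted p = 0.411) for Bmpr2 and 0.94 (adjusted p = 0.0737) for Bmpr1b. Acvr2a and Acvr2b, type II receptors that activin and BMP share, had 0.07 (adjusted p = 0.793) and 0.07 (adjusted p = 0.872). Smad1 and Smad5, which Alk3 phosphorylates, had 0.34 (adjusted p = 0.135) and 0.11 (adjusted p = 0.426).

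Of 9 BMP ligands tested, 1 was called, lower in GS4T, against 0.979% of all genes, with a list median -0.37, female -0.34. That gene was Bmp3, a ligand known to dampen BMP signals, which measured 109, 109, 76.6 and 37.8 in GS4T, 192, 234, 154 and 100.0 in GA3T and 24.5, 39.8, 61.0 and 61.5 in GWTT. One distal GA3T library fell within the GS4T range, and the difference was -1.07 (SE 0.22, adjusted p = 0.0418), or -0.99 (adjusted p = 0.179) without the male libraries. Bmp7 measured 241, 146, 366 and 314 in GS4T, 259, 362, 318 and 376 in GA3T and 32.4, 28.1, 142 and 143 in GWTT, above controls in all libraries of both knockouts, with a direct difference of -0.37 (adjusted p = 0.321). Bmp8b measured 6.57, 4.66, 3.78 and 9.28 in GS4T, 0.784, 3.68, 2.07 and 0.992 in GA3T and 0, 0, 0 and 0 in GWTT, listed at 0 in every control, and its direct difference of 1.34 (adjusted p = 0.0766) was not called. Bmp2, Bmp4, Bmp5 and Bmp6 had direct differences of -0.45 (adjusted p = 0.357), -0.33 (adjusted p = 0.262), -0.35 (adjusted p = 0.236) and -0.68 (adjusted p = 0.0484), and Gdf6 and Gdf10 of -0.25 (adjusted p = 0.704) and -1.31 (adjusted p = 0.0624).

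Of 10 tested BMP antagonists, 1 was called, against 1.81% of all genes. Chrdl1, a secreted chordin-like antagonist, measured 6.003, 5.25, 3.30 and 3.09 in GS4T, 29.4, 11.7, 18.1 and 24.7 in GA3T and 56.9, 34.2, 24.0 and 25.9 in GWTT. All GS4T libraries were below all GA3T libraries, at -1.99 (SE 0.30, adjusted p = 0.0186) and -1.78 (adjusted p = 0.138) without the male libraries. The list had a median 0.03, female -0.10. Grem1, an antagonist of stromal cells under the crypt base, was not called, with 464, 836, 1051 and 1029 in GS4T and 659, 648, 225 and 827 in GA3T and a difference of 0.60 (adjusted p = 0.435). It was not among the genes that the naming rule selects and was added after its values were seen.

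For the TGF-beta branch, none of 7 ligands was called (median 0.48, female 0.19), none of 12 receptors, Smads and binding proteins (median 0.12, female 0.09) and 1 of 23 targets, against 1.81% of all genes (median 0.25, female 0.14). The called target was Lox, which cross-links collagen and elastin and measured 582, 605, 759.9 and 995 in GS4T, 205, 397, 195 and 364 in GA3T and 165, 132, 149 and 120.3 in GWTT. Each GS4T library was higher than any other library, and GA3T female libraries were nearer to it than the male ones. The difference was 1.38 (SE 0.27, adjusted p = 0.0377) and 0.92 (adjusted p = 0.141) without the male libraries, where it was not called. Against controls it was 2.35 (adjusted p = 7.08e-05) in GS4T and 0.97 (adjusted p = 0.0403) in GA3T.

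Some TGF-beta targets had small differences. Ccn2, the connective tissue growth factor, measured 220.2, 396, 374 and 373 in GS4T, 176, 199, 391 and 227 in GA3T and 179, 93.9, 379 and 389 in GWTT, overlapping in all groups, at 0.49 (adjusted p = 0.217). Pmepa1, a negative regulator of TGF-beta signals, measured 721, 521, 786 and 736 in GS4T, 603, 879, 634 and 742 in GA3T and 179, 201, 511 and 410.5 in GWTT, with overlapping knockouts at -0.05 (adjusted p = 0.889). Against controls Pmepa1 differed by 1.21 (adjusted p = 0.00273) in GS4T and 1.26 (adjusted p = 0.0251) in GA3T.

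Skil, a Smad corepressor that TGF-beta induces, had 0.44 (adjusted p = 0.0894), and Cdkn2b, a cell cycle inhibitor, 0.98 (adjusted p = 0.0246) with all GS4T libraries higher but a fold below the threshold. The matrix genes Fn1, Postn, Col1a1, Col1a2 and Col3a1 had -0.19 (adjusted p = 0.76), 0.03 (adjusted p = 0.945), 0.07 (adjusted p = 0.933), -0.29 (adjusted p = 0.648) and 0.08 (adjusted p = 0.939). Tgfbi and Thbs1, secreted adhesion proteins, had -0.05 (adjusted p = 0.931) and 0.70 (adjusted p = 0.186), Snai1, a repressor of epithelial genes, 0.66 (adjusted p = 0.0885), and Timp1, a protease inhibitor, 0.78 (adjusted p = 0.128). Ltbp2, a latent TGF-beta binding family member, measured 109, 171, 206 and 186 in GS4T, 72.3, 206, 27.4 and 82.2 in GA3T and 8.01, 6.86, 18.5 and 4.71 in GWTT, high in both knockouts, with a direct difference of 1.09 (adjusted p = 0.233). Tgfb1i1, Nox4, Cthrc1, Acta2 and Tagln had 0.25 (adjusted p = 0.29), 0.18 (adjusted p = 0.503), 0.15 (adjusted p = 0.741), 0.27 (adjusted p = 0.484) and 0.53 (adjusted p = 0.17). None of these was called.

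**Figure D4:**
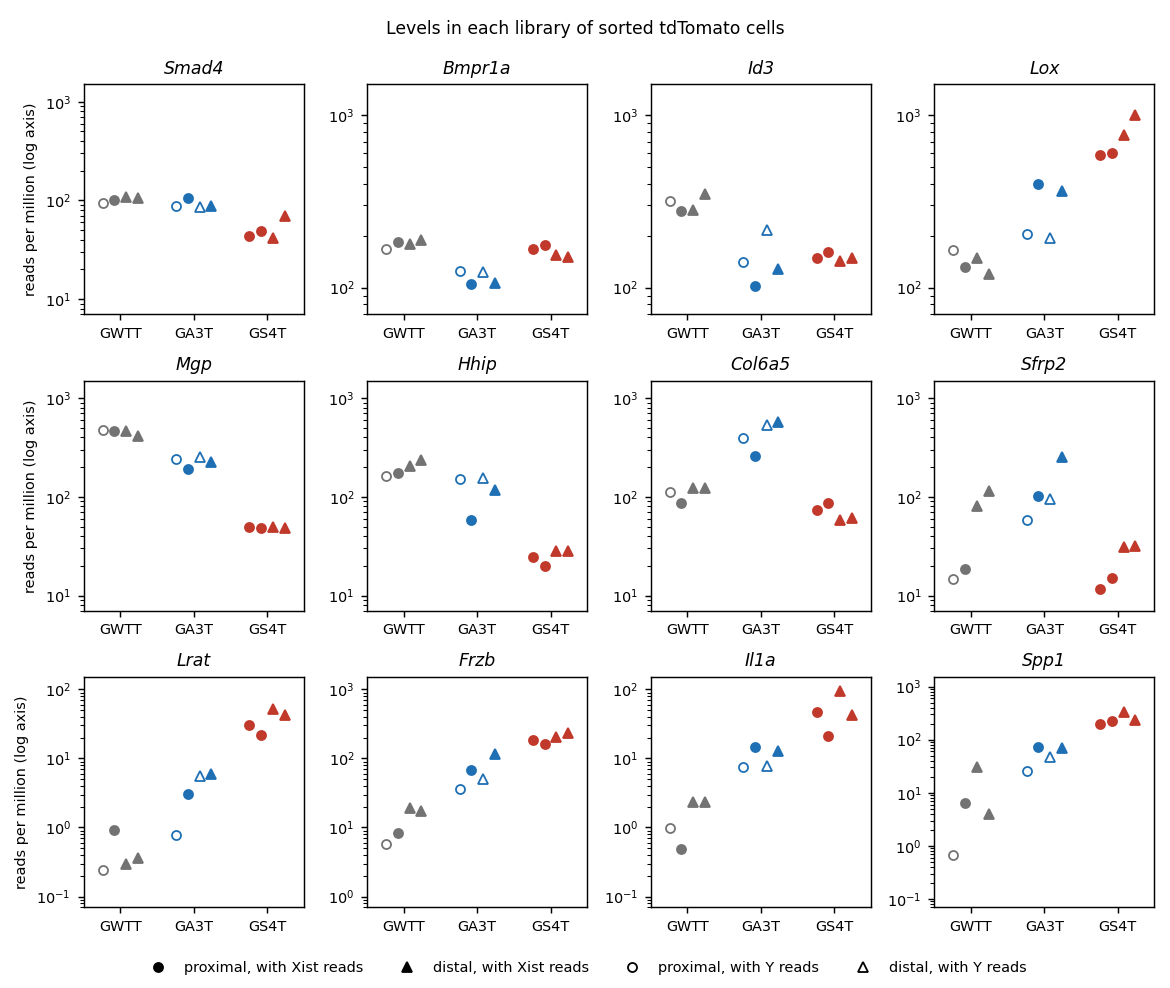
CPM on log axes in each GWTT, GA3T and GS4T library for 12 genes, circles for proximal and triangles for distal, open for libraries with chromosome Y reads. Smad4 is lowest in GS4T and Bmpr1a in GA3T, Id3 overlaps between the knockouts, and Mgp and Lox do not.

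Of 14 Hedgehog pathway genes tested, 1 was called, against 1.81% of all genes, the Hhip described above, with a list median -0.16, female -0.10. Ptch1, the Hedgehog receptor and itself a target, was added after its values were seen and measured 632, 354, 425 and 404 in GS4T, 475, 431, 455 and 235 in GA3T and 383, 667, 751 and 969 in GWTT, overlapping between the knockouts at 0.20 (adjusted p = 0.645). None of 10 Wnt ligands was called (median -0.32, female -0.00). Of 9 R-spondins and Wnt antagonists, 2 were called higher, against 0.832% of all genes, and 1, Sfrp2, lower, against 0.979% (median 0.03, female 0.15).

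Frzb, a secreted frizzled-related Wnt antagonist, measured 185, 162, 204 and 235 in GS4T, 36.1, 67.2, 49.9 and 114 in GA3T and 5.81, 8.28, 19.3 and 17.0 in GWTT. The groups formed 3 separate levels with GS4T highest, although GA3T distal 2 came near to it. The difference was 1.66 (SE 0.27, adjusted p = 0.024) and 1.14 (adjusted p = 0.0524) without the male libraries. Wif1, which binds Wnt proteins, measured 20.4, 13.9, 48.1 and 53.5 in GS4T, 6.55, 9.94, 13.7 and 21.4 in GA3T and 2.32, 3.21, 27.7 and 20.8 in GWTT. Proximal and distal values differ within each knockout, and within each segment GS4T was higher, at 1.24 (SE 0.21, adjusted p = 0.0262) and 0.96 (adjusted p = 0.138) without the male libraries.

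Of 37 collagen chains tested, 6 were called, all lower in GS4T (0.979% of all genes were), with a list median -0.26, female -0.21. Besides Col6a5 these were Col23a1, Col13a1, Col15a1, Col26a1 and Col4a5. Against controls, 9 chains were called higher and 7 lower in GS4T (8.61% and 5.80% of all genes), with a median of 0.15. In GA3T, 10 were called higher and 2 lower (3.88% and 1.18% of all genes), with a median of 0.62. Both comparisons share the controls. Col23a1, a transmembrane collagen, measured 22.7, 16.0, 25.6 and 15.3 in GS4T, 50.8, 59.5, 66.4 and 68.6 in GA3T and 26.8, 22.7, 21.2 and 20.6 in GWTT. GA3T stood above both controls and GS4T in all libraries, at -1.60 (SE 0.18, adjusted p = 0.00814) and -1.67 (adjusted p = 0.0738) without the male libraries. Col13a1, another transmembrane collagen, and Col15a1, a basement membrane collagen, had -1.38 (SE 0.25, adjusted p = 0.0322) and -1.28 (SE 0.24, adjusted p = 0.0326), and -1.02 (adjusted p = 0.0989) and -1.17 (adjusted p = 0.169) without the male libraries. Col26a1 and Col4a5 had -1.24 (adjusted p = 0.0252) and -1.22 (adjusted p = 0.0498), and -1.34 (adjusted p = 0.129) and -1.11 (adjusted p = 0.188) without these. The libraries of the knockouts overlapped for Col13a1, Col26a1 and Col4a5, and did not for Col15a1.

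Of the 10 fibroblast markers, Lum and Dpt, which bind collagen fibrils, were called lower, against 0.979% of all genes. Lum measured 365, 671, 315 and 233 in GS4T, 1075, 730.0, 791 and 731 in GA3T and 1557, 1838, 1167 and 1097 in GWTT and Dpt 1006, 1285, 708 and 639.5 in GS4T, 3381, 1606, 2309 and 1331 in GA3T and 4699.8, 4466, 2387 and 2243 in GWTT. All GS4T libraries were below all GA3T libraries for both, at -1.16 (SE 0.24, adjusted p = 0.0413) and -1.21 (SE 0.27, adjusted p = 0.0486), and -0.99 (adjusted p = 0.213) and -0.74 (adjusted p = 0.164) without the male libraries. The 10 fibroblast markers had a median 0.08, female -0.04.

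Of 37 matrix proteases and inhibitors, 1 was called higher, against 0.832% of all genes, and 2 lower, against 0.979% (median 0.16, female 0.01). Mmp8, a collagenase of neutrophils, measured 9.46, 4.43, 29.8 and 25.4 in GS4T, 1.18, 4.43, 2.58 and 5.18 in GA3T and 0.306, 0, 0.298 and 0.0596 in GWTT, with overlap between the knockouts, at 1.87 (SE 0.42, adjusted p = 0.0498) and 1.34 (adjusted p = 0.227) without the male libraries, and is also counted among the neutrophil markers. Adamts17 measured 12.3, 10.6, 5.89 and 10.6 in GS4T, 44.3, 27.8, 27.7 and 28.1 in GA3T and 25.8, 16.6, 22.8 and 16.8 in GWTT and Adamts10 187, 138, 107 and 117 in GS4T, 404, 285, 398 and 246 in GA3T and 450.2, 474, 494 and 502 in GWTT, with GS4T below GA3T in all libraries for both of these secreted proteases. Their differences were -1.62 (SE 0.20, adjusted p = 0.0115) and -1.27 (SE 0.19, adjusted p = 0.0193), and -1.46 (adjusted p = 0.0989) and -0.97 (adjusted p = 0.0857) without the male libraries.

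Lama3, a chain of a laminin under epithelia, measured 46.9, 42.2, 41.4 and 64.1 in GS4T and 9.97, 22.7, 21.6 and 18.2 in GA3T. It was higher in all GS4T libraries, at 1.42 (SE 0.24, adjusted p = 0.0251) and 1.20 (adjusted p = 0.0998) without the male libraries, while epithelial markers also had higher means. The laminin chain Lamc3 measured 23.4, 22.6, 3.24 and 2.95 in GS4T and 66.4, 36.0, 17.3 and 20.6 in GA3T, lower within each segment, at -1.67 (SE 0.28, adjusted p = 0.025) and -1.51 (adjusted p = 0.165) without the male libraries. Of 28 integrins (median 0.10, female 0.08), 1 was called, against 1.81% of all genes, the integrin-like Itgbl1, at -1.97 (SE 0.40, adjusted p = 0.0413) and -1.35 (adjusted p = 0.0923) without the male libraries. Its GS4T libraries held 0.340, 0.466, 0.540 and 0.492 and its GA3T libraries 12.8, 2.40, 4.56 and 3.03.

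Of 13 contractile genes, 2 were called higher, against 0.832% of all genes (median 0.02, female -0.05). Actg2, an actin of visceral smooth muscle, measured 129, 113, 226 and 126 in GS4T, 41.7, 65.3, 57.2 and 63.4 in GA3T and 22.0, 14.2, 45.7 and 43.0 in GWTT, and Des, an intermediate filament protein of muscle, 43.9, 68.0, 69.8 and 35.4 in GS4T, 22.2, 24.3, 21.2 and 10.4 in GA3T and 33.3, 28.0, 24.5 and 22.8 in GWTT. Both were higher in all GS4T libraries than in any GA3T library, at 1.33 (SE 0.20, adjusted p = 0.0193) and 1.44 (SE 0.28, adjusted p = 0.0375), and 1.14 (adjusted p = 0.147) and 1.65 (adjusted p = 0.147) without the male libraries. Their smooth muscle list as a whole had overlapping sums (median 0.02, female -0.05).

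Of 18 interleukin genes tested, 2 were called higher, against 0.832% of all genes, and none lower (median -0.03, female -0.04). Il1a, an alarmin of the IL-1 family, measured 47.7, 21.4, 95.0 and 42.8 in GS4T, 7.40, 14.6, 7.77 and 13.0 in GA3T and 0.978, 0.494, 2.32 and 2.32 in GWTT. Each genotype was separate from the others, with GS4T highest and distal library 1 at the top. The difference was 2.04 (SE 0.39, adjusted p = 0.0352) and 1.65 (adjusted p = 0.188) without the male libraries. Il1rn, the natural antagonist of the IL-1 receptor, measured 76.7, 51.7, 92.8 and 84.4 in GS4T, 19.0, 38.6, 30.2 and 48.5 in GA3T and 3.42, 6.67, 3.58 and 7.21 in GWTT. It was higher in all GS4T libraries, though GA3T distal 2 came close, at 1.19 (SE 0.24, adjusted p = 0.0402) and 0.77 (adjusted p = 0.147) without the male libraries.

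Il1b measured 174, 97.9, 275 and 124 in GS4T, 58.0, 74.8, 54.8 and 108 in GA3T and 12.9, 9.14, 26.1 and 25.3 in GWTT. GA3T distal 2 fell within the GS4T range, and the difference of 1.12 (SE 0.31, adjusted p = 0.083) was not called. Against controls Il1b differed by 3.14 (adjusted p = 0.000188) in GS4T and 2.02 (adjusted p = 0.00669) in GA3T, and Il1a by 4.28 (adjusted p = 7.03e-05) and 2.23 (adjusted p = 0.00705). Macrophage and neutrophil markers also had higher means in GS4T, and their part was not tested. Il11, a stromal cytokine that TGF-beta induces, measured 30.8, 22.4, 125 and 48.6 in GS4T, 25.1, 38.0, 12.2 and 73.7 in GA3T and 2.51, 2.35, 1.61 and 2.62 in GWTT. It overlapped between the knockouts, at 0.55 (adjusted p = 0.605), with values against controls of 3.84 (adjusted p = 0.000336) and 3.29 (adjusted p = 0.0084).

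The other interleukins were not called. Il33, an alarmin of stromal nuclei, had -0.50 (adjusted p = 0.395), Il6 -0.20 (adjusted p = 0.821), Il10 0.77 (adjusted p = 0.373), Il18 0.59 (adjusted p = 0.223) and Tslp, which acts on type 2 immunity, -0.72 (adjusted p = 0.0644). Il15, Il7 and Il34, which sustain lymphocytes and macrophages, had -0.34 (adjusted p = 0.383), 0.14 (adjusted p = 0.674) and 0.06 (adjusted p = 0.879). The lymphocyte cytokines Il17a, Il22 and Il4 had -0.82 (adjusted p = 0.408), -1.13 (adjusted p = 0.395) and -0.11 (adjusted p = 0.784), and Il16, Il17d and Ebi3 had 0.23 (adjusted p = 0.423), -0.64 (adjusted p = 0.182) and -0.25 (adjusted p = 0.409). Il22 rested on GA3T distal 2, at 20.3 CPM against 0.162 to 1.51 in the other knockout libraries.

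Of 25 chemokine ligands, 1 was called, against 1.81% of all genes (median 0.26, female 0.15). Ccl6, a chemokine of myeloid cells, measured 73.7, 108, 91.3 and 74.6 in GS4T, 21.7, 55.8, 39.6 and 27.0 in GA3T and 3.79, 14.8, 19.3 and 9.83 in GWTT. All GS4T libraries were higher, at 1.32 (SE 0.28, adjusted p = 0.0431) and 1.12 (adjusted p = 0.152) without the male libraries. Of 32 growth factors, 2 were called higher, against 0.832% of all genes (median 0.11, female -0.03): Angpt2, a vascular ligand of the receptor Tek, at 1.33 (SE 0.26, adjusted p = 0.0367), and Fgf1 at 1.06 (SE 0.19, adjusted p = 0.0282). Without the male libraries they had 1.25 (adjusted p = 0.189) and 1.12 (adjusted p = 0.154). Angpt2 measured 2.21, 5.07, 11.5 and 10.3 in GS4T and 0.952, 1.65, 2.87 and 2.48 in GA3T, with overlap between a proximal GS4T library and distal GA3T libraries, and Fgf1 measured 21.4, 33.6, 27.5 and 18.4 in GS4T and 12.9, 14.0, 10.8 and 8.27 in GA3T, with none. Of 15 prostaglandin genes, 1 was called lower, against 0.979% of all genes (median 0.17, female 0.04), the prostacyclin synthase Ptgis. It measured 34.2, 47.3, 34.1 and 30.9 in GS4T, 145, 89.1, 85.0 and 66.2 in GA3T and 164, 188, 88.6 and 88.5 in GWTT, lower in every GS4T library than in any other, at -1.33 (SE 0.18, adjusted p = 0.0141) and -1.07 (adjusted p = 0.0738) without the male libraries.

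Genes of DNA replication and division held no call between the knockouts. None of 20 S phase genes (median 0.05, female -0.05), 21 mitosis genes (median 0.05, female -0.10) and 8 cell cycle inhibitors (median -0.08, female -0.07) was called. Of the mitosis genes, 18 were called higher against controls in GS4T (8.61% of all genes), with a median of 1.72, and 18 in GA3T (3.88% of all genes), with a median of 1.53, from comparisons that share the controls. Which cells these transcripts came from was not tested.

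Of 21 interferon-stimulated genes, 2 were called lower, against 0.979% of all genes, and none higher (median -0.62, female -0.48). Ifit3, which binds viral RNA complexes, measured 7.36, 8.28, 7.73 and 1.90 in GS4T and 22.9, 20.1, 24.7 and 13.7 in GA3T, and the GTPase Gbp3 24.8, 11.8, 16.3 and 8.37 in GS4T and 41.3, 31.7, 38.4 and 31.3 in GA3T. All GS4T libraries were below all GA3T libraries for both genes, at -1.65 (SE 0.35, adjusted p = 0.0429) and -1.26 (SE 0.27, adjusted p = 0.0458), and -1.41 (adjusted p = 0.205) and -1.09 (adjusted p = 0.227) without the male libraries. Of 7 MHC class II genes, 1 was called lower, against 0.979% of all genes: Ciita, the activator of the class (median -1.51, female -1.33). Ciita measured 8.44, 5.07, 2.70 and 1.41 in GS4T and 12.5, 11.0, 16.3 and 11.0 in GA3T, at -1.51 (SE 0.34, adjusted p = 0.0497) and -1.34 (adjusted p = 0.193) without the male libraries, and H2-Ab1, an antigen-presenting chain added after its values were seen, measured 208, 70.8, 72.6 and 18.9 in GS4T and 215, 165, 289.6 and 185 in GA3T, with overlap, at -1.62 (adjusted p = 0.134). The B and plasma cell markers had a median -1.50, female -1.57, and their part was not tested.

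Of 20 immediate early and heat shock genes (median -0.53, female -0.40), 1 was called lower, against 0.979% of all genes, the chaperone Hspa1a at -1.12 (SE 0.18, adjusted p = 0.0233) and -1.02 (adjusted p = 0.14) without the male libraries. None of 20 Hox genes (median 0.04, female 0.11) and 72 respiratory chain subunits (median 0.03, female 0.17) was called. Of 73 cytosolic ribosomal proteins, 1 was called lower, a share near the 0.979% of all genes (median 0.02, female 0.26): Rpl34 measured 72.3, 61.3, 67.3 and 59.8 in GS4T, 196, 161, 228 and 169.9 in GA3T and 164, 225, 200.2 and 214 in GWTT, and each GS4T library lay far below the others, at -1.51 (SE 0.12, adjusted p = 0.00247) and -1.34 (adjusted p = 0.016) without the male libraries. Genes of this class have many near-identical copies, so the source of these reads is uncertain. The lists of stromal subtypes, Pdgfra-high subepithelial cells (6 genes, median -0.22, female -0.21) and Cd34 and Cd81 fibroblasts (7 genes, median -0.60, female -0.14), had no called member.

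By chromosome, the share of tested genes called was highest on chromosomes 3 (27 of 699, 3.86%), 16 (14 of 454, 3.08%) and 1 (25 of 839, 2.98%), against 1.81% of all genes. On chromosome 18, where Smad4 lies, 8 of 382 were called (2.09%), all higher in GS4T and none lower. The called genes Mndal, Ifi211, Ifi202b and Ifi205 of the Ifi200 family, Catspere2 and Srp9 lie in GRCm38 chr1:172223513-182132407, with limits drawn around called genes after their values were seen, so the number of calls within them measures nothing. Srp9, part of the signal recognition particle, measured 59.0, 61.5, 66.8 and 51.9 in GS4T, 22.9, 21.2, 24.7 and 20.1 in GA3T and 42.0, 19.2, 21.0 and 21.8 in GWTT, with all GS4T libraries above the other 8, at 1.39 (SE 0.11, adjusted p = 0.00212) and 1.49 (adjusted p = 0.016) without the male libraries. For Tpm3-rs7, Mndal, Ifi202b, Catspere2 and Srp9, control proximal 1 differed from the other 3 controls in the direction of GS4T. The strain background of the mice was not tested.

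Within 1 segment, the direct comparison has 2 libraries against 2. In the proximal colon 2 of 14305 genes were called (0.0140%), Tpm3-rs7 higher (0.00699%) and Ifi202b lower (0.00699%), and 450 passed at an unadjusted p under 0.05 and the same fold change (3.15%). In the distal colon 20 of 14365 were called (0.139%), 11 higher (0.0766%) and 9 lower (0.0627%), and 884 passed unadjusted (6.15%). With the male GA3T library of the segment left out, 9 proximal genes and 1 distal gene were called. Without the other GA3T library the counts were 209 and 79, and without GS4T library 1 they were 1 and 0. Without GS4T library 2, 1 proximal gene was called. With replicate number as a block 4 proximal and 0 distal genes were called, and edgeR called 8 distal genes. The distal calls included Mgp at -2.27 (SE 0.14, adjusted p = 0.0152), Col6a5 at -3.19 (SE 0.13, adjusted p = 0.00744), S100a9 at 4.29 (SE 0.23, adjusted p = 0.0152) and the cytokine Tnf at 2.82 (SE 0.20, adjusted p = 0.0268). The proximal differences of the same genes were -2.11 (adjusted p = 0.0581), -2.01 (adjusted p = 0.117), 1.48 (adjusted p = 0.435) and 1.10 (adjusted p = 0.502).

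Lcn2, an iron-binding protein of neutrophils and inflamed epithelium seen among the distal calls, measured 38.1, 30.8, 134 and 259 in GS4T and 20.4, 39.1, 5.07 and 7.995 in GA3T. It was high in both distal GS4T libraries and mixed in the proximal ones, at 4.67 (SE 0.37, adjusted p = 0.0307) in the distal and 0.26 (adjusted p = 0.78) in the proximal colon. The neutrophil marker sums were also highest in these 2 libraries. Whether the difference between knockouts itself differs between segments was tested by an interaction term in limma. It called 0 of 14297 genes (0%), with a smallest adjusted p of 0.324, while 231 (1.62%) had an unadjusted p under 0.05 and the same fold change. edgeR called 0 and DESeq2 21 for the same term.

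Promoter sequences of RefSeq (GRCm38.p6, 250 bases before to 50 after the start) were matched by symbol for 16 of the 24 genes with the largest differences. They were searched for CAGAC, the short Smad-binding element, on both strands (GTCTG on the other), and for GGCGCC, a GC-rich Smad-binding sequence that reads the same on both. CAGAC occurs in 49.6% and GGCGCC in 11.9% of all 32851 promoters of that length. CAGAC occurred in 2 of 8 matched genes higher in GS4T and 2 of 8 lower, and GGCGCC in none. A match is a description of letters in this window and not a binding site. The sequences below are those of Hhip (chr8:80057959-80058258, minus strand), Sfrp2 (chr3:83766071-83766370, plus strand), Lrat (chr3:82903925-82904224, minus strand) and Ctla2a (chr13:60936576-60936875, minus strand), shown as examples, 2 higher and 2 lower in GS4T, from the matched genes that stayed called without the male libraries, with CAGAC and GTCTG in capitals where present.
Hhip: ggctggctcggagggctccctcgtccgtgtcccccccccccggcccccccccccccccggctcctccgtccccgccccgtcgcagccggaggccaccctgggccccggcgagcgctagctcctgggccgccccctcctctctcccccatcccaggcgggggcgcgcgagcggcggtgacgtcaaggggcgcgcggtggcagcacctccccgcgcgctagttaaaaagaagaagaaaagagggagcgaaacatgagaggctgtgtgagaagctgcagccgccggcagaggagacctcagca
Sfrp2: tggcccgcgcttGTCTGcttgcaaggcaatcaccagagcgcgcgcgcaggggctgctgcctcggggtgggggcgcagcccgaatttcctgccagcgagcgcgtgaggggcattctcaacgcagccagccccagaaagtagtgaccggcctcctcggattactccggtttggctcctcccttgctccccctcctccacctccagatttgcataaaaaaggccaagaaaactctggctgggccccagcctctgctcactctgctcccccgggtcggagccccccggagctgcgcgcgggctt
Lrat: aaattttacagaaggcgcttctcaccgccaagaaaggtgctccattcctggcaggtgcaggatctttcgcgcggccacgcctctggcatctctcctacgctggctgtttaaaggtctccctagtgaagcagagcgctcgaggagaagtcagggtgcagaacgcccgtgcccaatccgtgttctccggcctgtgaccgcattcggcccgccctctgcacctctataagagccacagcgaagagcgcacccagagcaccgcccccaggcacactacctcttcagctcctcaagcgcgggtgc
Ctla2a: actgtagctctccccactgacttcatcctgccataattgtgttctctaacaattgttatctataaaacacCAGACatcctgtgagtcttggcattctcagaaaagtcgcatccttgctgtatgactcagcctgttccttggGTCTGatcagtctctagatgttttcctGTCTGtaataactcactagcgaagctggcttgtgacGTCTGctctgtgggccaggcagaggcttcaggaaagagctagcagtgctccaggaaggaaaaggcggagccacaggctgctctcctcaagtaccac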

How the data were processed

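The deposited tables hold gene-level signal as normalized read counts, 1 table for each knockout and segment with its GWTT libraries. According to the submitters' processing notes, the authors mapped reads to mm10 with STAR 2.5.3 and normalized counts within each table with DESeq2 1.28.1. Within a column, 100.0% of values were whole multiples of 1 step (tolerance 0.1 reads), which gave the reads per library. The tables were normalized separately, so each column was scaled to counts per 1000000 (CPM) over its full table. Genes were joined by name. 5 names whose control reads differ between tables were left out, as were 19 to 21 names per table that spreadsheets turned into dates, with 0.145 to 0.156% of reads.

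Differences were fitted with limma 3.58.1 in R 4.3.3 on log2 of CPM plus 1, with segment as block, for genes with a mean of at least 1 CPM. Adjusted p-values follow Benjamini-Hochberg over all genes tested. Alternatives used edgeR 4.0.16 and DESeq2 1.42.0 on the recovered reads. The procedure was tested on simulated data. Gene positions are from GENCODE vM21 (GRCm38). Named are the targeted and driver genes, the 12 largest called differences in each direction without overlap (gene models without a proper name, immunoglobulin and T cell receptor segments, Xist and chromosome Y genes left out), and of each list up to 4 called members and members by role. Members and lists were chosen with earlier results of these data known. Some genes this rule selects are not reported here.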

Additional observations from a re-analysis of the deposited data

Results flagged for a closer look

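305 genes were listed in both GS4T tables and in neither GA3T table, and 5 the other way round, so they had no direct comparison. Ngp, a neutrophil granule protein, had a mean of 21.0 CPM in GS4T, from 3.91, 8.10, 18.7 and 53.4 in GS4T and 0, 0.0618, 0.537 and 0 in GWTT. Il23a, a subunit of IL-23, had a mean of 4.87, from 3.96, 1.34, 9.73 and 4.43 in GS4T and 0, 0.247, 0 and 0.238 in GWTT. Itgb2l, an integrin-like gene of neutrophils, had a mean of 1.22, from 0.396, 1.11, 1.57 and 1.83 in GS4T and 0.306, 0.247, 0.298 and 0.358 in GWTT. These 3 drew attention as members of the gene lists with a mean of at least 1 CPM and a signal above controls in data outside the direct comparison. The list members Higd1b, Mmp7, Rpl3l and Bmp8a also lay above all controls, with means under 1 CPM. Each table lists only genes above a minimum total and the controls are shared, so being listed with GS4T alone depends on the GS4T reads. The signal above controls is in part fixed by that choice, and their level in GA3T was not tested.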

How the results depend on the processing

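The count of 259 over both segments fell to 157 with a pseudocount of 5 CPM and rose to 712 with DESeq2 and 589 by unadjusted p. With replicate number as a block, the replicate block fit called 146, 4 proximal and 0 distal. Within a segment, residuals of the GS4T and GA3T libraries of the same number correlated at r = -0.03 (proximal) and -0.04 (distal), across genes. These values do not address whether like-numbered proximal and distal libraries share a mouse. Values as deposited gave 409, 122 higher and 287 lower, or 29.8% higher against 45.9%, with a median shift of -0.12. Other filters, a smaller pseudocount, upper-quartile scaling, edgeR, values relative to controls and the fit without segment gave 213 to 272. Positive list medians smaller than that shift turn negative with values as deposited. Without GS4T proximal 1, proximal 2, distal 1 or distal 2 the count was 142, 96, 105 and 71, and without the same GA3T libraries 68, 475, 102 and 141. Chosen after seeing the data, the fits without the male libraries (25), with sex as covariate (47) and without GA3T replicates 2 (563) also moved it, as did like-numbered segments taken as 1 mouse (139 with an estimated correlation, 10 with means). Proximal calls numbered 4 with the larger pseudocount, 285 with DESeq2, 450 unadjusted and 5 with the conflicting names kept (chosen after seeing the data), and 1 to 209 with 1 library left out, 1 without GS4T 1 or 2, 9 without GA3T 1 and 209 without GA3T 2. Distal calls numbered 8 with edgeR, 661 with DESeq2, 884 unadjusted and 0 to 79 with 1 library left out, 0 without GS4T 1, 1 without GA3T 1 and 79 without GA3T 2. There limma pools the spread, and the lone library is assumed to vary like the others. The interaction called 21 with DESeq2, 231 unadjusted, 3 with the conflicting names kept, and 0 with any 1 library left out. GS4T against GWTT called 1170 with the larger pseudocount and 1945 to 2145 with 1 library left out. GA3T against GWTT called 347 with the larger pseudocount, 1126 with DESeq2 and 320 to 885 with 1 library left out, 320 without GWTT distal 2 and 366 without GA3T proximal 2. Among the genes that the naming rule selects, no called one reversed its direction in the settings tried for it, and the cause of the changes was not tested.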

Other observations

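Some called genes outside the rule for named genes were picked after their values were seen. Cyp26b1, which breaks down retinoic acid, measured 25.9, 23.3, 35.6 and 34.4 in GS4T, 8.96, 10.3, 5.57 and 6.07 in GA3T and 3.67, 27.4, 7.09 and 7.99 in GWTT, and Rbp4, which carries retinol, 50.6, 32.9, 32.1 and 14.8 in GS4T and 82.9, 110.4, 121 and 84.1 in GA3T. Cyp26b1 was higher in GS4T at 1.84 (SE 0.22, adjusted p = 0.0106) and Rbp4 lower at -1.68 (SE 0.30, adjusted p = 0.0282), and neither overlapped between the knockouts. Without the male libraries they had 1.77 (adjusted p = 0.0839) and -1.65 (adjusted p = 0.127). Aldh1a1, which makes retinoic acid, was lower at -1.21 (SE 0.27, adjusted p = 0.0477), and -0.93 (adjusted p = 0.0246) without the male libraries. Unlike those 2 genes, it overlapped between the knockouts. Spp1, the secreted glycoprotein osteopontin, measured 198, 226, 331 and 236 in GS4T, 25.4, 72.7, 47.0 and 68.4 in GA3T and 0.673, 6.30, 31.0 and 3.99 in GWTT, with all GS4T libraries above the other 8 and a difference of 2.27 (SE 0.29, adjusted p = 0.0126), or 1.77 (adjusted p = 0.0324) without the male libraries. Tnf measured 30.4, 9.15, 49.8 and 43.7 in GS4T, 6.22, 8.62, 5.91 and 5.57 in GA3T and 3.73, 5.13, 5.42 and 8.94 in GWTT, higher in all GS4T libraries at 1.96 (SE 0.43, adjusted p = 0.0477) and 1.88 (adjusted p = 0.208) without the male libraries, though proximal 2 was close to GA3T. Islr, a leucine-rich repeat protein of stromal cells, measured 194, 191, 144 and 184 in GS4T, 541, 405, 414 and 376 in GA3T and 461, 485, 263 and 263 in GWTT, lower in each GS4T library at -1.27 (SE 0.12, adjusted p = 0.00403) and -1.14 (adjusted p = 0.0434) without the male libraries.

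Among epithelial genes seen later, Krt7, Cldn4, Muc4 and Clca3b were higher in all GS4T libraries, at 1.68 (adjusted p = 0.0285), 1.52 (adjusted p = 0.0224), 1.71 (adjusted p = 0.0229) and 1.58 (adjusted p = 0.0413), and the antimicrobial lectin Reg3b at 2.54 (adjusted p = 0.0486) with overlap. Without the male libraries these 5 had 1.49 (adjusted p = 0.0989), 1.54 (adjusted p = 0.0839), 1.40 (adjusted p = 0.102), 1.12 (adjusted p = 0.162) and 2.61 (adjusted p = 0.185). Epithelial markers also had higher means in GS4T, and their part was not tested. Of 15 clock genes seen later, 3 were called, all lower in GS4T, against 0.979% of all genes (median -0.63, female -0.43): Dbp, Nr1d1 at -1.30 (adjusted p = 0.043) and Per3 at -1.14 (adjusted p = 0.0335). The last 2 had -0.83 (adjusted p = 0.121) and -0.96 (adjusted p = 0.189) without the male libraries. Of 153 immunoglobulin segments tested, 7 were called, all lower in GS4T, against 0.979% of all genes, with a median -1.10, female -1.56. Of these, only Igkv4-70, at -4.00 (adjusted p = 0.000498), stayed called without the male libraries, at -4.15 (adjusted p = 0.016). It was also the only segment still called with the estimated correlation (limma, adjusted p = 0.000781).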
